A study of Mus musculus with 6 samples.

Results

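The genes described here are 7 Wnt ligand genes, Wnt3a, Wnt4, Wnt5a, Wnt5b, Wnt7b, Wnt10b and Wnt16, in mouse cutaneous squamous cell carcinomas with and without the transcription factor p63. They were chosen as the Wnt ligands among the 16381 gene entries of the authors' deposited table of changes, and each is listed there once, under the names WNT3A, WNT4, WNT5A, WNT5B, WNT7B, WNT10B and WNT16. That table lists only entries with an unadjusted p up to 0.462. The other 12 of the 19 mouse Wnt ligand genes matched no listed entry and were not analysed here.

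Whole-tumour RNA of 6 tumours was hybridised to Illumina bead arrays. All tumours came from a mixed c57BL/6 - CD1 background with the genotype p53+/-, p63L/L; K14-CreER. Both groups thus share heterozygosity for p53, loxP-flanked p63 and a tamoxifen-activated Cre recombinase driven by the keratin 14 promoter, so excision is limited to cells in which that promoter is active. Primary disease was induced with the carcinogen DMBA, and disaggregated tumour cells were transplanted into Nude mice, athymic hosts that lack most T cells but keep myeloid and other innate cells. After 13 days of growth the hosts received either vehicle (p63-intact, 3 tumours) or tamoxifen (p63-excised, 3 tumours) on each of 5 days, and tumours were taken 1 to 3 days later. Drug and excision cannot be told apart in this design. The labels give no age of the mice. They do not say either that the 3 tumours of a group grew in separate hosts, so the spread that p-values rest on may in part lie within hosts.

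Wnt proteins are secreted, lipid-modified signals. They bind Frizzled receptors, and with the coreceptors LRP5 and LRP6 they stabilise beta-catenin, which then activates genes together with TCF and LEF factors; other Wnt proteins signal through receptor kinases such as ROR2 without beta-catenin. In skin, Wnt signalling is needed for hair follicle formation and for the renewal of basal keratinocytes, the cells in which p63 is most active.

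After p63 excision the Wnt ligand genes did not move as a group. Wnt7b and Wnt4 rose, by 2.97-fold and 2.44-fold in the authors' deposited table, Wnt3a fell, with a signed fold change of -2.40 in the authors' deposited table, and Wnt5a, Wnt5b, Wnt10b and Wnt16 did not pass the test. The test is the authors' own two-group comparison, with p-values adjusted here by the Benjamini-Hochberg method as if every probe of the array had been tested, which is the most tests there can have been, at a threshold of 0.05. By this rule 3 of 7 ligand genes (42.9%) passed, beside 190 of all 16381 entries (1.16%) in the authors' deposited table. Among all entries 0.659% rose and 0.501% fell in the authors' deposited table. Of 13727 detected probes, whose gene names the files do not give, 604 (4.40%) passed a limma test of the same groups with Benjamini-Hochberg adjustment. The ligand genes were chosen with earlier results known, so the difference between these shares was not tested. In whole-tumour RNA, fewer cells of a type and less RNA per cell cannot be told apart.

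**Figure D1:**
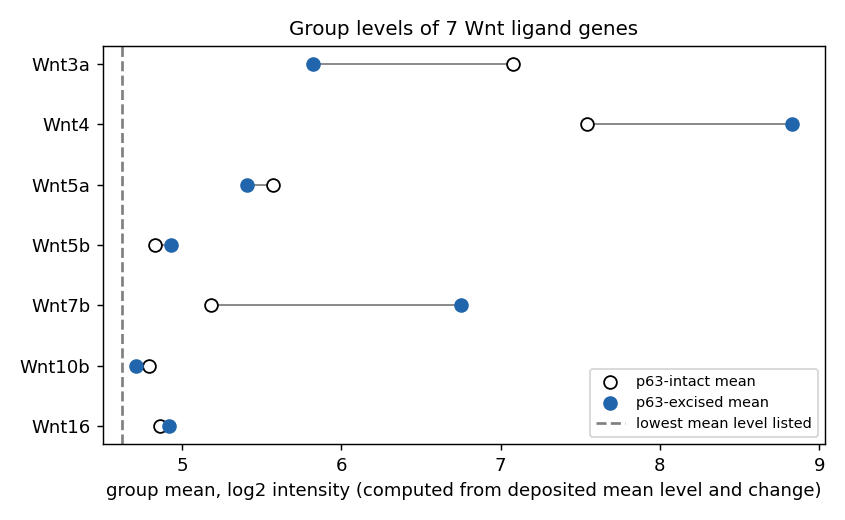
Mean log2 intensity (x axis) of each Wnt ligand gene (y axis) in p63-intact tumours (open points) and p63-excised tumours (filled points), computed from the mean level and change of the authors' deposited table; the dashed line marks 4.62, the lowest mean level listed. Wnt7b and Wnt4 lie to the right after excision and Wnt3a to the left, while Wnt5b, Wnt10b and Wnt16 stay close to the dashed line in both groups.

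Wnt7b, a ligand of the beta-catenin branch known for its roles in lung, placenta and brain vessel development and expressed in keratinocytes, had the largest change of the 7 in the authors' deposited table. Its log2 change was 1.57 ± 0.150 (SE) in the authors' deposited table, with a 95% interval of 1.21 to 1.93 (t = 10.48, adjusted p = 0.0181). From the mean level and the change in the authors' deposited table, its group means were a log2 intensity of 5.18 in p63-intact and 6.75 in p63-excised tumours. The p63-intact mean was thus within 1 log2 unit of the lowest mean level listed, so the fold may understate the change. By measured size it was the 47th highest of 8351 positive changes in the authors' deposited table.

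Wnt4, known for its roles in kidney, ovary and mammary duct development, was already well above the lowest listed level before excision. Its group means computed from the authors' deposited table were a log2 intensity of 7.54 in p63-intact and 8.83 in p63-excised tumours. The log2 change in the authors' deposited table was 1.29 ± 0.158 (SE), with a 95% interval of 0.91 to 1.67 (t = 8.17, adjusted p = 0.0362). Wnt4 responds to estrogen and progesterone signalling in several tissues, and tamoxifen binds the estrogen receptor; the part of the drug in its rise was not tested.

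Wnt3a, the prototype ligand of the beta-catenin branch, which in the embryo maintains the progenitors of the tail and the hippocampus, moved the other way. Its group means computed from the authors' deposited table were a log2 intensity of 7.08 in p63-intact and 5.82 in p63-excised tumours. The log2 change in the authors' deposited table was -1.26 ± 0.107 (SE), with a 95% interval of -1.51 to -1.01 (t = -11.82, adjusted p = 0.0143). Of the 7 genes it had the smallest p, ranking 31 among all 16381 entries of the authors' deposited table, and its fall was the 73rd deepest. The intervals of Wnt7b and Wnt4 lie wholly above 0 and that of Wnt3a wholly below it.

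**Figure D2:**
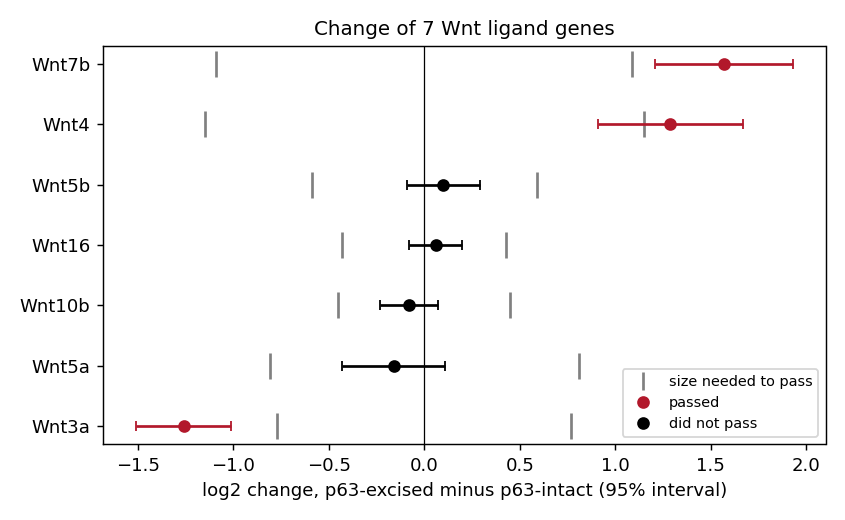
Log2 change (x axis, p63-excised minus p63-intact) of each Wnt ligand gene (y axis) with its 95% interval, from the authors' deposited table; grey ticks mark the size of change that would pass the adjusted threshold given each gene's SE. Wnt7b, Wnt4 and Wnt3a lie beyond their ticks, and the intervals of the other 4 genes cross 0 and stay inside theirs.

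The promoters of Wnt4 and Wnt3a are shown because these genes moved in opposite directions. The sequences are the 250 bases before each gene's start in RefSeq, build GRCm38.p6, at chr4:137277385-137277634 on the plus strand for Wnt4 and chr11:59290752-59291001 on the minus strand for Wnt3a. Each reads 5′ to 3′ along its gene, with matches to the GC box GGGCGG, on either strand, in capitals.
Wnt4: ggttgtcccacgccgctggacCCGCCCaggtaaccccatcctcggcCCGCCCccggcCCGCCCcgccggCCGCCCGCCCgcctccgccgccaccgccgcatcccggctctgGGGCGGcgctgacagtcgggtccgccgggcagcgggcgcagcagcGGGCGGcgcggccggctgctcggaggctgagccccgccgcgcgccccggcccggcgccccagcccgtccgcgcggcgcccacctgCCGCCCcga
Wnt3a: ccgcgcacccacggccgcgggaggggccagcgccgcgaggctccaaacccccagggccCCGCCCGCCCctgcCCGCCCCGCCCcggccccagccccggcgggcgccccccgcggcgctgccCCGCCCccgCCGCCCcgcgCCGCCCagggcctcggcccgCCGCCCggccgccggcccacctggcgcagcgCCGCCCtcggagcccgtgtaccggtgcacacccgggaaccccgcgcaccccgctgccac
Both stretches are very rich in G and C, at 85.2% for Wnt4 and 87.6% for Wnt3a against a median of 52.4% over 32841 RefSeq promoter windows of this length. Only 0.107% of those windows have a higher G and C content than Wnt4, and 0.0304% a higher one than Wnt3a. The Wnt4 stretch holds 44 CpG dinucleotides and the Wnt3a stretch 41, against a median of 6. The GC box, the site bound by SP1-family factors, matches 8 times in Wnt4 and 9 times in Wnt3a, counting overlapping matches, and at least 1 match is present in 32.7% of all windows. Neither stretch holds the p53 family half-site (present in 7.13% of windows), the TCF/LEF core CTTTGA (13.8%), the estrogen receptor half-site AGGTCA (14.0%), the AP-1 site TGANTCA (6.75%) or the CCAAT box CCAAT (33.9%), searched on both strands. The absence of these letters from so short a window says nothing about the factors themselves. By the letters searched, the Wnt4 and Wnt3a windows are alike although the changes of the genes have opposite signs.

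Of the 7 ligand genes, 5 matched the promoter table, with 3 start sites for Wnt5b; Wnt5a and Wnt7b did not match. The Wnt10b and Wnt16 windows are less extreme, with 66.8% and 59.2% G and C and no GC box. The 3 windows of Wnt5b range from 53.2% to 75.2%. One of them holds the TCF/LEF core, another the AP-1 site, and the Wnt16 window the estrogen receptor half-site and 2 CCAAT boxes. None of the 7 windows holds the p53 family half-site.

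Wnt5a, the main ligand of the branch that acts without beta-catenin, had group means of 5.57 in p63-intact and 5.41 in p63-excised tumours, computed from the authors' deposited table. Its log2 change of -0.16 ± 0.111 (SE) in the authors' deposited table had a 95% interval of -0.43 to 0.11 and an adjusted p of 1. Given this SE, a change of 0.81 in log2 would have been needed to pass. The interval leaves out a rise as large as that of Wnt4 or Wnt7b. Its p63-intact mean lies less than 1 log2 unit above the lowest mean level listed, so a fall as deep as that of Wnt3a could hardly have been measured.

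The remaining 3 ligand genes were near the lowest level at which the authors' deposited table lists any entry, 4.62. Wnt5b, the close relative of Wnt5a known from cartilage, had, in the authors' deposited table, a mean log2 level of 4.88 and a log2 difference of 0.10 (95% interval -0.09 to 0.29). Wnt10b, a ligand of hair follicle placodes and of bone, had, in the authors' deposited table, a mean level of 4.75 and a log2 difference of -0.08 (95% interval -0.23 to 0.07). Wnt16, known for its role in cortical bone, had, in the authors' deposited table, a mean level of 4.89 and a log2 difference of 0.06 (95% interval -0.08 to 0.20). All 3 intervals include 0, and the unadjusted p-values ran from 0.244 to 0.344 in the authors' deposited table. At such levels a fall can hardly be seen. Of 9287 entries with a mean log2 level under 5 in the authors' deposited table, 1 passed, and the median size of the log2 change was 0.09. Among 4269 entries at 5.5 or above in the authors' deposited table, 165 passed and the median size was 0.32. The mean is taken over both groups and so depends on the change itself: an entry with a large rise from the lowest levels would have a higher mean, and small changes among the dim entries follow in part from this split. For Wnt5b, Wnt10b and Wnt16 the intervals leave out a rise as large as that of Wnt4 or Wnt7b in measured intensity and hardly bear on a fall.

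**Figure D3:**
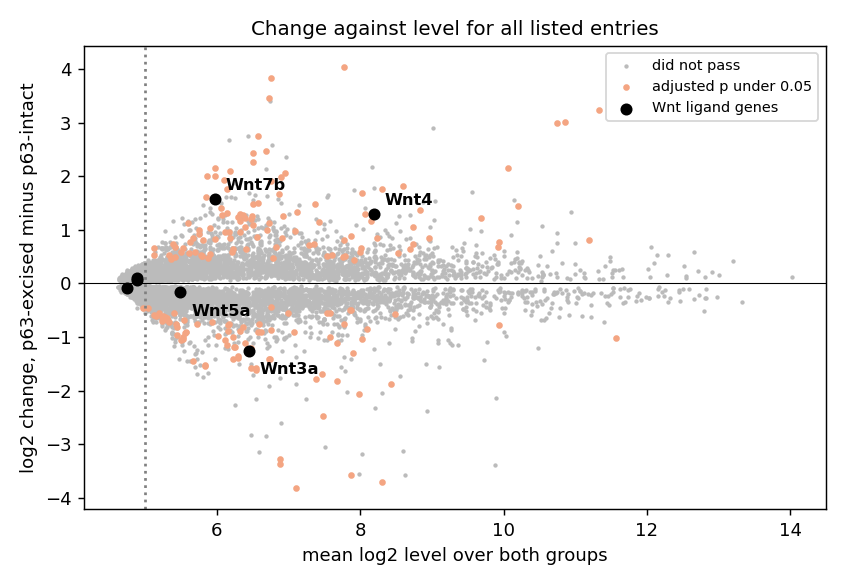
Log2 change (y axis) against mean log2 level (x axis) for all 16381 entries of the authors' deposited table; orange points passed the adjusted threshold, black points are the 7 Wnt ligand genes, and the dotted line marks a level of 5. Wnt7b, Wnt4 and Wnt3a lie outside the dense part of the cloud, and the unnamed black points are Wnt5b, Wnt10b and Wnt16, in the narrow tip at low levels.

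Genes that act beside the ligands were examined in 8 lists of 91 pathway genes, of which 52 are listed in the authors' deposited table. None of the 52 passed over all tests, 15 had an unadjusted p under 0.05 (10 higher and 5 lower) against 19.9% of all entries, and their median log2 change was 0.08, beside 0.05 over all entries of the authors' deposited table. Only 19 of the 52 reached a mean log2 level of 5.5 in the authors' deposited table, among them 2 of 13 receptor genes, 0 of 4 genes of the R-spondin module and 1 of 5 beta-catenin targets, so for most of these genes neither the missing calls nor the signs say much. The genes that make a Wnt protein ready for secretion did not pass: the acyltransferase gene Porcn was at -0.27 and the carrier gene Wls at -0.16 in log2 change in the authors' deposited table. Notum, whose product removes the lipid and which is also a beta-catenin target, was at 0.12 in the authors' deposited table.

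Of 13 listed receptor and coreceptor genes, 10 had positive and 3 negative log2 changes in the authors' deposited table; none passed and 3 had p under 0.05 before adjustment. Those were the Frizzled genes Fzd5 at 0.27 (adjusted p = 0.207) and Fzd6 at -0.60 (adjusted p = 0.321) and the receptor-like gene Ptk7 at 0.55 (adjusted p = 0.42), all from the authors' deposited table. Ror1 was at -0.14 and Fzd3 at 0.14 in log2 change in the authors' deposited table. The coreceptor genes Lrp5 and Lrp6 were at 0.11 and 0.15 in the authors' deposited table, with intervals that include 0. In the R-spondin module, whose secreted proteins enhance Wnt signals by keeping Frizzleds at the cell surface, none of 4 listed genes passed and 1, Rspo3 at 0.22, had p under 0.05 before adjustment (authors' deposited table). The others were Rspo4 at 0.18, Rspo2 at -0.13 and Lgr4 at 0.09 in log2 change in the authors' deposited table.

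Among 9 listed secreted antagonists and Kremen receptors, 8 had negative log2 changes in the authors' deposited table, 2 had p under 0.05 before adjustment and none passed. The exception in sign was Kremen1, which encodes a receptor through which DKK proteins remove LRP6 and which is listed under an older symbol, at 0.86 in log2 (95% interval 0.50 to 1.22, adjusted p = 0.106) in the authors' deposited table. It was the nearest of all 52 genes to the threshold. With the 16381 listed entries of the authors' deposited table taken as all tests its adjusted p was 0.0383, and 486 entries in all (2.97%) were under 0.05. That count of tests is too low, because only entries with an unadjusted p up to 0.462 are listed, so Kremen1 is not counted as passed. Dkk3 was at -0.46 (unadjusted p = 0.0455), Sfrp1 at -0.25, Sfrp5 at -0.16 and Sost at -0.14 in the authors' deposited table. For Sfrp1, Sfrp5 and Sost the intervals include 0.

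Inside the cell, none of 8 listed transducer genes passed, and 4 of them had p under 0.05 before adjustment in the authors' deposited table. The kinase genes Gsk3b, Csnk1e and Gsk3a were at 0.43, 0.60 and 0.84 (adjusted p = 0.182, 0.27 and 0.306), and Axin1, the scaffold of the destruction complex, was at -0.30 in log2 change (adjusted p = 0.613) in the authors' deposited table. Ctnnbip1, an inhibitor of the beta-catenin and TCF contact, was at -0.26, and Ctnnb1, the beta-catenin gene itself, was at -0.29 with a 95% interval of -0.90 to 0.32 in the authors' deposited table. Among 6 nuclear effectors none passed and 3 had p under 0.05 before adjustment (authors' deposited table): the corepressor genes Tle4 at -0.52 (adjusted p = 0.24) and Tle3 at 0.25 (adjusted p = 0.404), and the coactivator gene Pygo2 at -0.38 (adjusted p = 0.687). Bcl9l was at 0.40 and Bcl9 at -0.07 in the authors' deposited table.

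The 5 listed target genes of beta-catenin all had positive log2 changes in the authors' deposited table, where 8351 of 16381 entries are positive, and none passed. Myc was at 0.26 (adjusted p = 0.431), Ccnd1 at 0.51 (adjusted p = 0.731), Sp5 at 0.14 and Nkd2 at 0.19 in the authors' deposited table. Only Myc had an unadjusted p under 0.05 among them. The target genes Axin2, Lgr5, Lef1, Tnfrsf19, Nkd1, Rnf43 and Znrf3 matched no listed entry and were not analysed here. Only entries with an unadjusted p up to 0.462 are listed, so beta-catenin output was read from few genes, kept by that cut. Of 5 listed genes of planar polarity and calcium signalling none passed and 1 had an unadjusted p under 0.05, Prkca at 0.25, with Celsr1 at 0.22, Prickle2 at -0.26, Prickle1 at 0.13 and Plcb1 at 0.20 in the authors' deposited table.

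**Figure D4:**
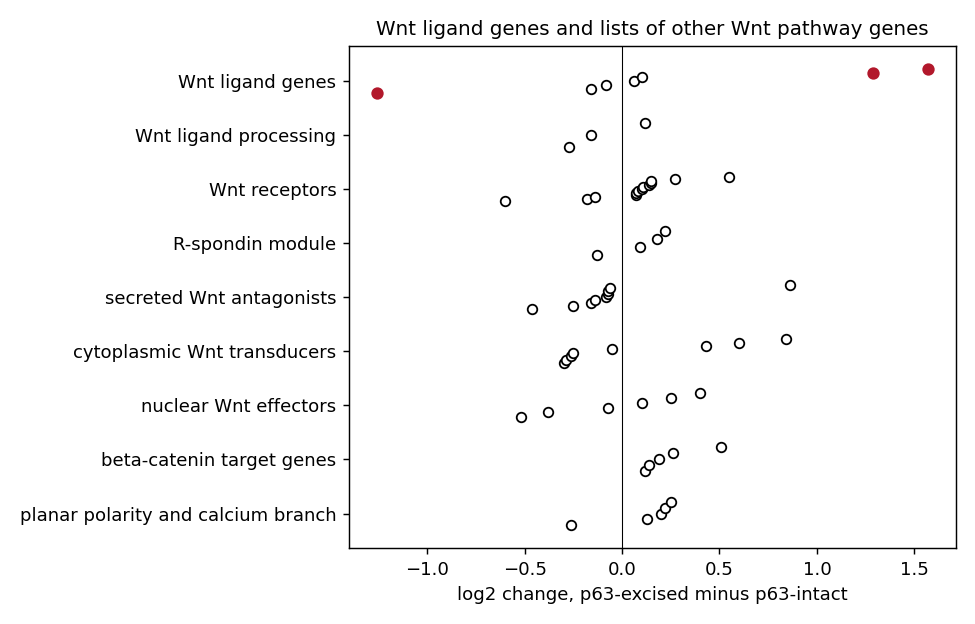
Log2 change (x axis) of the 7 Wnt ligand genes and of the listed genes of 8 pathway lists (y axis), from the authors' deposited table; each point is a gene, and filled red points passed the adjusted threshold. The 3 red points belong to the ligand genes, and the pathway genes lie between -0.60 and 0.86.

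The genes next to the ligand genes on the chromosome were also looked up, a choice made after the values were seen. Of 14 nearest protein-coding neighbours, 6 are listed in the authors' deposited table. None passed, and 2 of the 6 had p under 0.05 before adjustment, beside 19.9% of all entries. Those 2 were Zbtb40 beside Wnt4, at -0.16 in log2 change (p = 0.0498), and Arf3 beside Wnt10b, at 0.26 (p = 0.0159), both from the authors' deposited table. Zbtb40 had the opposite sign to Wnt4, but its mean log2 level of 4.93 was near the lowest listed level of 4.62. No neighbour of Wnt3a or Wnt7b is listed.

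The tumours carried the markers of squamous epithelium: Krt14, Krt6b and Krt5, among the 8 of 10 keratinocyte markers listed, averaged 14.02, 12.54 and 11.65 in log2 intensity in the authors' deposited table. None of the 8 passed, and 1 had p under 0.05 before adjustment. Of these 8 markers 6 were positive, with a median log2 change of 0.21 and Krt10, a keratin of differentiating layers, at 1.70 in the authors' deposited table. Sfn was at -0.64, and Trp63, the excised gene, at -0.25 in log2 change (95% interval -0.52 to 0.02, adjusted p = 0.751) in the authors' deposited table. No source used here says which exons of Trp63 the array reads, so its value is no check of excision. Of 6 listed simple epithelial markers 6 were positive and 5 rose, beside 0.659% of all entries that rose. Their median log2 change was 2.55, with Krt19 at 3.84 and Krt8 at 4.04 in the authors' deposited table. All 8 skeletal muscle markers were positive with none past the test and 6 at p under 0.05 before adjustment, beside 19.9% of all entries. Their median was 0.59, with Pgam2 at 0.43 and Des at 1.40 in the authors' deposited table. Fibroblast markers were negative for 3 of 4, with a median log2 change of -0.49, Lum at -0.70 and Dcn at -0.90 in the authors' deposited table. Myeloid markers were negative for 2 of 5, Lyz2 at -1.73 and Adgre1 at -0.27, and positive for the 3 others, with a median of 0.42 (authors' deposited table). None of the fibroblast and myeloid markers passed, and 0 and 2 had p under 0.05 before adjustment. Endothelial markers were negative for 1 of 3, with Emcn at -0.42 and Cdh5 at 0.28, and none passed or had p under 0.05 before adjustment (authors' deposited table). The part of these cells in the changes of Wnt7b, Wnt4 and Wnt3a was not tested.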

How the data were processed

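Illumina bead arrays were run on 6 tumours, 3 per group as the labels give it. Per the file headers, the authors deposited probe intensities with detection p-values, and a comparison that holds, per gene name, the log2 change, fold change, mean log2 level, t and log-odds scores and p-value. The probe intensities have a mean of 131.42 on all 6 arrays, with medians from 74.7 to 106.1. They thus appear to have been scaled to a common mean before the probe settings compared below. A deposited value table holds log2 intensities. The submitters' processing notes name R 2.12.0; no source used here says how the comparison was normalized. No file names the gene of a probe, so no ligand value per array can be given, and the authors' table was used where limma on named probes had been planned.

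SE was computed as log2 change over t. Intervals used the 6.69 degrees of freedom that t and p imply (median over 1926 entries, range 6.64 to 6.74). Group means have the deposited mean level as their midpoint and the log2 change as their difference, which takes that level as the mean over all 6 arrays. Changes are rounded in the file, so the SE of a small change is approximate. A change needed to pass is SE times 7.27, the smallest size of t that passed. Symbols were matched to RefSeq (GRCm38.p6), older ones only where unique.

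Probe calls used limma 3.58.1 (R 4.3.3) on neqc values of 13727 probes detected (p under 0.05) on at least 3 arrays, two-sided, Benjamini-Hochberg adjusted. They gave 604 probes, 319 higher and 285 lower (4.40%). Both computations were tested on simulated data. Probes detected per array ran from 11964 to 16096, with p63-excised array 2 lowest, and the number of arrays limits the precision. Named genes are all 7 ligands, Trp63, up to 5 genes of each pathway list and up to 2 of each marker list by smallest p, plus some named for their role (Lrp5, Lrp6, Ctnnb1, Krt14, Krt6b, Krt5, Krt8, Des and Cdh5 among them). Members and lists were chosen with earlier results of these data known.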

Additional observations from a re-analysis of the deposited data

How the results depend on the processing

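With the 16381 listed entries or the 13727 detected probes taken as all tests, Wnt3a, Wnt4 and Wnt7b passed (adjusted p from 0.00433 to 0.0131). Wnt5a, Wnt5b, Wnt10b and Wnt16 did not. This outcome was fixed in advance. Fewer assumed tests only lower an adjusted p, and unadjusted p-values of 0.196 or more could not pass with either count. Both counts also fall short of the tests made, since only entries with an unadjusted p up to 0.462 are listed. Limited to entries whose mean log2 level reached 5.5, the 4 others were left out and the 3 passed (adjusted p = 0.0147, 0.0406 and 0.0196 for Wnt3a, Wnt4 and Wnt7b). Wnt7b reached that level only through its p63-excised group, with group means of 5.18 in p63-intact and 6.75 in p63-excised tumours. The number of tests was kept at all probes of the array, so this setting nearly repeats the main one and adds no separate support. With listed entries as all tests 1 pathway gene, Kremen1, was under 0.05 in place of 0, since fewer tests were assumed than were made. The authors' table cannot be recomputed without an array or under another scaling, so whether 1 tumour decides a ligand's change was not tested. What such choices do was seen on unnamed probes, where 604 passed. The count was 344 without background correction, 50 (14 higher, 36 lower) with median scaling, which moved the median log2 change from -0.03 to -0.22, 380 in the authors' value table and 203 with no filter on dim probes; the cause was not tested. A shift of that size is larger than the changes of Wnt5a, Wnt5b, Wnt10b and Wnt16. The median over probes gives neither the shift nor the SE of a single gene. Whether Wnt3a, Wnt4 and Wnt7b would pass under median scaling was therefore not tested. Leaving out each array gave 208 to 626 probes: without p63-intact array 1, 2 or 3 there were 313, 208 and 213, and without p63-excised array 1 or 3 there were 347 and 257. A fit with the replicate number as block passed 1324 probes, but deviations of equal-numbered tumours correlated at 0.34, 0.38 and -0.06, so the numbers are not shown to pair them, and not every tumour correlated best with its own number. The settings for probes could not be run for the ligand genes, whose probes are unnamed.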
